A study of Mus musculus with 6 samples.

Results

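Secreted antagonists of Wnt signalling were followed in RNA-seq of limb bones from C57BL/6 mouse pups, 1 day old. The set held 10 genes chosen by name, Sfrp1, Sfrp2, Sfrp4, Sfrp5, Frzb, Dkk1, Dkk2, Dkk3, Wif1 and Notum, out of 43346 genes in the count table, and all 10 passed the filter that left 20210 genes for testing. There were 3 wild type (WT) libraries and 3 from pups labelled Hdac3 CKO, a conditional knockout of Hdac3 that the series text ties to Prx1. Hdac3 encodes a histone deacetylase, the catalytic subunit of the NCoR and SMRT corepressor complexes, and Prx1 (Prrx1) regulatory sequence is a common driver of Cre recombinase for limb bud mesenchyme, the source of bone, cartilage and tendon but not of blood cells or muscle fibres. Whether the WT pups carried floxed or Cre alleles is not given in the sources used here. Bones of fore- and hindlimbs were freed of soft tissue and lysed whole. Each library thus mixes bone, cartilage, marrow and whatever connective tissue or muscle stayed attached. The labels do not say whether the libraries came from separate pups or litters, so a p-value here reflects variation from library to library, part of which could be technical. Fewer cells of a type and less RNA per cell cannot be told apart in such samples.

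Wnt proteins bind a Frizzled receptor together with the co-receptor Lrp5 or Lrp6, which stabilises beta-catenin and lets it act with TCF and LEF factors at target genes. The antagonists act outside the cell at different steps. Sfrp proteins, Frzb among them, carry a cysteine-rich domain like that of the Frizzled receptors and bind Wnt proteins. Wif1 also binds Wnt proteins, through its WIF domain. Dkk1 and Dkk2 bind Lrp5 and Lrp6, and Dkk3 is a divergent relative without an established role at these co-receptors. Notum is an enzyme that cuts the lipid from Wnt proteins that they need to bind Frizzled. In bone, Wnt signalling through beta-catenin favours osteoblasts, loss of SFRP4 function in people causes Pyle disease with thin cortical bone, and Dkk1, Wif1 and Notum are also known as feedback targets that beta-catenin raises.

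RefSeq start regions on GRCm38.p6, the same assembly as mm10, were found for 6 of the 10 genes, and are shown for 3 of the genes with lower values in Hdac3 CKO. The windows were searched for the TCF and LEF words CTTTGAA or CTTTGTT, or either of the words CTTTGAT or CTTTGTA, on both strands, for the RUNX word TGTGGT on both strands and for the TATA box word TATAAA on the gene's strand. In the 250 bases before the start, 14.8% of 32851 RefSeq start windows held one of the TCF and LEF words, 14.0% held the RUNX word and 7.59% held TATAAA. Capitals mark a match. The first stretch lies before Wif1 at chr10:121033754-121033959, plus strand, the second before Dkk2 at chr3:132085042-132085291, plus strand, and the third at Dkk1 at chr19:30549588-30549613, minus strand.
Wif1: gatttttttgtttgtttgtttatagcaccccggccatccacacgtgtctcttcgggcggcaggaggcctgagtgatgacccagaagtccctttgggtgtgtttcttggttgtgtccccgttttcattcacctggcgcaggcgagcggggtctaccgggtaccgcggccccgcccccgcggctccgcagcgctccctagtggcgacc
Dkk2: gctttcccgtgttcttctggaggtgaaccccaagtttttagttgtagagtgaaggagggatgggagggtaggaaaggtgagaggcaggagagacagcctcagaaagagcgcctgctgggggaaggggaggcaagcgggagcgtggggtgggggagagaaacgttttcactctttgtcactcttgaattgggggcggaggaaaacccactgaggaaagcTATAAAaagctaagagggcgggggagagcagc
Dkk1: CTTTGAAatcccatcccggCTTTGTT

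The 26 bases at Dkk1 hold 2 TCF and LEF words, the outer one beginning 117 bases before the RefSeq start, and lie inside the gene as the deposited table bounds it. The Dkk1 window also held 1 RUNX word and TATAAA beginning 54 bases before the start. The Dkk2 stretch holds TATAAA beginning 32 bases before the start and none of the TCF, LEF or RUNX words. The 206 bases before Wif1 hold none of the words searched, and the whole Wif1 window of 250 bases is rich in CG pairs, with 21, where the median of all windows was 6. Sfrp2, Frzb and Sfrp5 also had windows, with 16, 16 and 13 CG pairs, where those of Dkk2 and Dkk1 held 7 and 6. Of the windows of Sfrp2, Frzb and Sfrp5, only that of Sfrp5 held a RUNX word, and none held the TCF, LEF or TATA words. These matches describe letters and do not show binding.

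Total counts per library ranged from 43389262 to 50927978. Hdac3, the targeted gene, stood at 48.4, 47.4 and 50.3 CPM (gene counts relative to the TMM-normalised library size) in the WT libraries. The Hdac3 CKO libraries held 31.8, 29.4 and 28.3 CPM, below all WT libraries, as their labels say. Hdac3 differed by -0.71 ± 0.12 (SE) in log2 fold change (adjusted p = 0.029, edgeR quasi-likelihood). It missed the threshold with any single library left out other than Hdac3 CKO replicate 1, at adjusted p of 0.067 to 0.13, with the chondrocyte markers as a covariate (0.07) and without both replicates numbered 3 (0.29), while the log2 fold change stayed between -0.76 and -0.65 in these fits and without Hdac3 CKO replicate 1. WT replicate 3 and Hdac3 CKO replicate 3 stood apart in cartilage RNA, with 10 of 10 chondrocyte markers measured and a summed level of 9062 and 16960 CPM, against 2131 to 2340 CPM in the other WT and 1918 to 2625 CPM in the other Hdac3 CKO libraries. Col2a1, Acan and the other chondrocyte markers were above 0 in all 6 libraries. Of all tested genes, 226 passed the test at an adjusted p under 0.05, of which 135 were higher and 91 lower in Hdac3 CKO. With library totals in place of TMM the split was 54 higher and 106 lower.

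Of the 10 Wnt antagonists, Sfrp4 rose and Wif1 fell in Hdac3 CKO bones, and 8 did not pass the test. That is 2 of 10, where 1.12% of all tested genes passed, 0.668% as higher and 0.45% as lower. An unadjusted p under 0.05 was reached by 5 of the 10 and by 14.7% of all tested genes. The genotypes did not overlap for 4 of the 10, Sfrp4 and Notum above and Wif1 and Dkk1 below, where 22.5% of all tested genes did not overlap. The log2 fold changes ran from -1.02 for Dkk2 to 1.92 for Sfrp4, with 5 above 0, 5 below 0 and a median of 0.078, where the median of all tested genes was 0.00088. The 2 genes past the test thus moved in opposite directions.

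**Figure D1:**
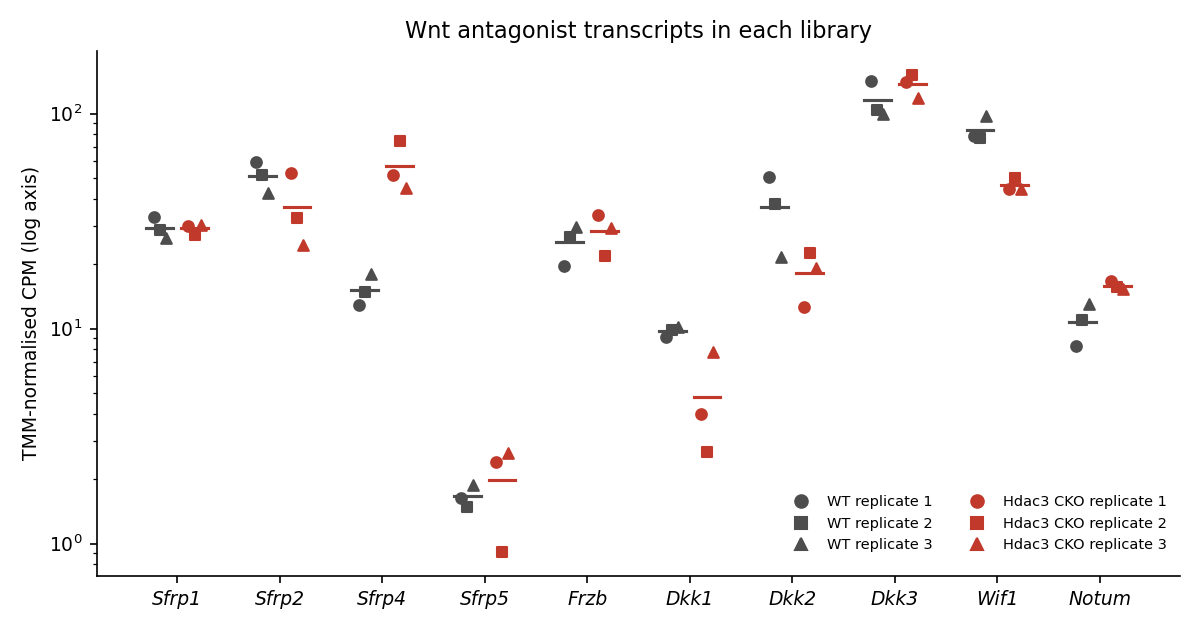
Level of each of the 10 Wnt antagonists in TMM-normalised CPM on a log axis, with grey symbols for the 3 WT libraries, red symbols for the 3 Hdac3 CKO libraries, 1 symbol shape per replicate number, and a bar at each group mean. All Hdac3 CKO values of Sfrp4 (45.3 to 74.7 CPM) lie above all WT values (12.9 to 17.9 CPM), and those of Wif1 (44.6 to 50.2 CPM) lie below (77.3 to 97.5 CPM).

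Among the Wnt-binding antagonists of the Sfrp family, Sfrp4 (ENSMUSG00000021319, chromosome 13, 19623175 to 19632821) stood at 12.9, 14.8 and 17.9 CPM in WT replicates 1, 2 and 3. Hdac3 CKO replicates 1, 2 and 3 held 52.0, 74.7 and 45.3 CPM. Every Hdac3 CKO library lay above every WT library, and the lowest of them was more than 2 times the highest WT value. The group means were 15.2 ± 2.5 CPM (SD, n = 3) and 57.3 ± 15.4 CPM (SD, n = 3). Sfrp4 rose 3.77-fold (95% interval 2.74 to 5.2), or 1.92 ± 0.21 (SE) in log2 fold change (adjusted p = 0.0084, edgeR quasi-likelihood), and it ranked 10 of 20210 genes by p. It was at an adjusted p of 0.0071 to 0.042 whichever single library was left out. With both cartilage-rich libraries left out, which leaves 2 against 2, the log2 fold change was 2.19 and the adjusted p 0.09, and no gene at all passed. In a two-sided exact permutation test of log2 CPM, Sfrp4, Wif1, Dkk1 and Notum each reached p = 0.1, which is the lowest value possible with 3 against 3.

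The rest of the family did not pass. Sfrp1 (chromosome 8, 23411502 to 23449632) stood at 32.9, 28.6 and 26.5 CPM in WT and at 30.0, 27.4 and 30.4 CPM in Hdac3 CKO. The groups overlapped throughout, and the 95% interval of the fold was 0.81 to 1.22 in this fit. The log2 fold change was -0.0046, and -0.19 with library totals in place of TMM. Frzb (chromosome 2, 80411970 to 80447625), a gene of joint and articular cartilage cells, stood at 19.6, 26.6 and 29.8 CPM in WT and at 34.0, 21.7 and 29.3 CPM in Hdac3 CKO, again overlapping, with a fold interval of 0.82 to 1.53. Sfrp5 (chromosome 19, 42197971 to 42202252) was the rarest of the set, with 39 to 113 counts per library. Its levels were 1.64, 1.47 and 1.87 CPM in WT and 2.4, 0.92 and 2.63 CPM in Hdac3 CKO, and its fold interval of 0.67 to 2.12 leaves room for a 2-fold difference.

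Sfrp2 (chromosome 3, 83766321 to 83774316) stood at 59.7, 51.9 and 42.9 CPM in WT and at 53.1, 32.9 and 24.5 CPM in Hdac3 CKO. Hdac3 CKO replicates 2 and 3 lay below all WT libraries, while Hdac3 CKO replicate 1 lay within their range. The log2 fold change was -0.49 ± 0.26 (SE) (adjusted p = 0.41, edgeR), and with single libraries left out it ran from -0.86 without Hdac3 CKO replicate 1 (adjusted p = 0.069) to -0.26 without Hdac3 CKO replicate 3 (adjusted p = 0.61). An antisense gene, Gm26771, shares 347 bases, 16.1%, of the exon bases of Sfrp2. It held 710, 635 and 452 counts in WT and 379, 341 and 179 in Hdac3 CKO, and the strand setting of the counting is not given in the sources used here, so reads of the pair cannot be told apart.

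Wif1 (ENSMUSG00000020218, chromosome 10, 121033960 to 121100650), the other Wnt-binding antagonist, stood at 78.3, 77.3 and 97.5 CPM in WT and at 44.7, 50.2 and 44.6 CPM in Hdac3 CKO. All 3 Hdac3 CKO libraries lay below all 3 WT libraries and close to each other. The means were 84.4 ± 11.4 CPM (SD, n = 3) and 46.5 ± 3.2 CPM (SD, n = 3). Wif1 fell to 0.551 of its WT level (95% interval 0.446 to 0.681), or -0.86 ± 0.14 (SE) in log2 fold change (adjusted p = 0.024, edgeR quasi-likelihood). The log2 fold change stayed between -0.92 and -0.74 with any single library left out. The adjusted p was then 0.082 without WT replicate 1, 0.077 without WT replicate 2, 0.079 without WT replicate 3, 0.0996 without Hdac3 CKO replicate 3, and 0.053 with the chondrocyte markers as a covariate, where the log2 fold change was -0.85. Without both cartilage-rich libraries, 2 against 2, they were 0.27 and -0.72.

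**Figure D2:**
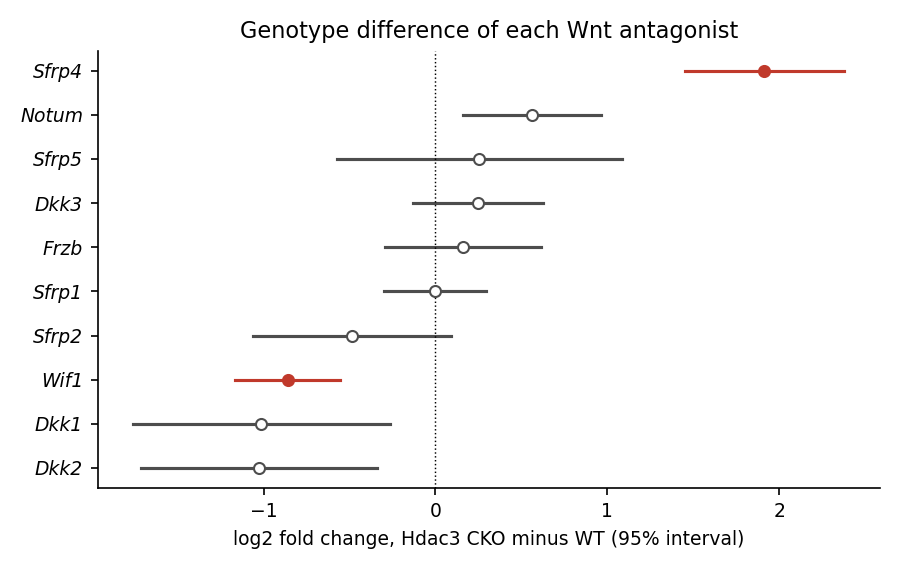
Log2 fold change of each antagonist, Hdac3 CKO minus WT, with its 95% interval from the edgeR fit, ordered by size, with filled red points for genes past an adjusted p of 0.05 and open points for the rest. Sfrp4 stands at 1.92 and Wif1 at -0.86, while the intervals of Sfrp1, Sfrp2, Sfrp5, Frzb and Dkk3 include 0.

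Of the Dkk genes, Dkk1 and Dkk2, which block the Lrp co-receptors, had lower means in Hdac3 CKO without passing the test, and the libraries of Dkk3 overlapped. Dkk1 (chromosome 19, 30545863 to 30549665) stood at 9.17, 9.87 and 10.2 CPM in WT and at 4.02, 2.68 and 7.79 CPM in Hdac3 CKO. The coefficient of variation was 5.45% over the WT libraries and 54.9% over the Hdac3 CKO libraries, and the groups did not overlap. The log2 fold change was -1.01 ± 0.33 (SE), and the adjusted p was 0.21 by edgeR and 0.041 by DESeq2. The highest Hdac3 CKO value came from replicate 3, the library with the most cartilage RNA. With single libraries left out the log2 fold change ran from -1.54 without that library (adjusted p = 0.065, edgeR) to -0.73 without Hdac3 CKO replicate 2 (adjusted p = 0.19), and the adjusted p reached 0.47 without WT replicate 2. With the chondrocyte markers as a covariate the log2 fold change was -1.11 and the adjusted p 0.092.

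Dkk2 (chromosome 3, 132085292 to 132180293) stood at 51.0, 38.0 and 21.6 CPM in WT and at 12.6, 22.6 and 19.2 CPM in Hdac3 CKO. WT replicate 3 lay just below Hdac3 CKO replicate 2, so the groups overlapped, and the WT libraries alone varied by 39.9% as a coefficient of variation. The log2 fold change was -1.02 ± 0.31 (SE), and the adjusted p was 0.17 by edgeR and 0.018 by DESeq2. Without WT replicate 3, where Dkk2 was lowest among WT, the log2 fold change was -1.295 and the adjusted p 0.076 in edgeR. Without WT replicate 1, where it was highest, they were -0.72 and 0.51. Dkk3 (chromosome 7, 112116019 to 112159057) stood at 142.3, 103.6 and 99.7 CPM in WT and at 140.8, 151.9 and 118.1 CPM in Hdac3 CKO. Its groups overlapped, with a fold interval of 0.91 to 1.55.

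Notum (chromosome 11, 120653788 to 120661175), the enzyme of the set, stood at 8.32, 10.9 and 13.0 CPM in WT and at 16.6, 15.7 and 15.3 CPM in Hdac3 CKO. All Hdac3 CKO libraries lay above all WT libraries. The log2 fold change was 0.56 ± 0.18 (SE), and the adjusted p was 0.2 by edgeR and 0.094 by DESeq2. The antisense genes Notumos and Myadml2os share 29.4% and 8.72% of the exon bases of Notum. Notumos held 109, 128 and 159 counts in WT and 183, 162 and 142 in Hdac3 CKO, against 443 to 687 for Notum. Myadml2os held 263, 268 and 297 counts in WT and 472, 303 and 398 in Hdac3 CKO, higher in every Hdac3 CKO library. With the strand setting unknown, reads of both could contribute to the Notum values.

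**Figure D3:**
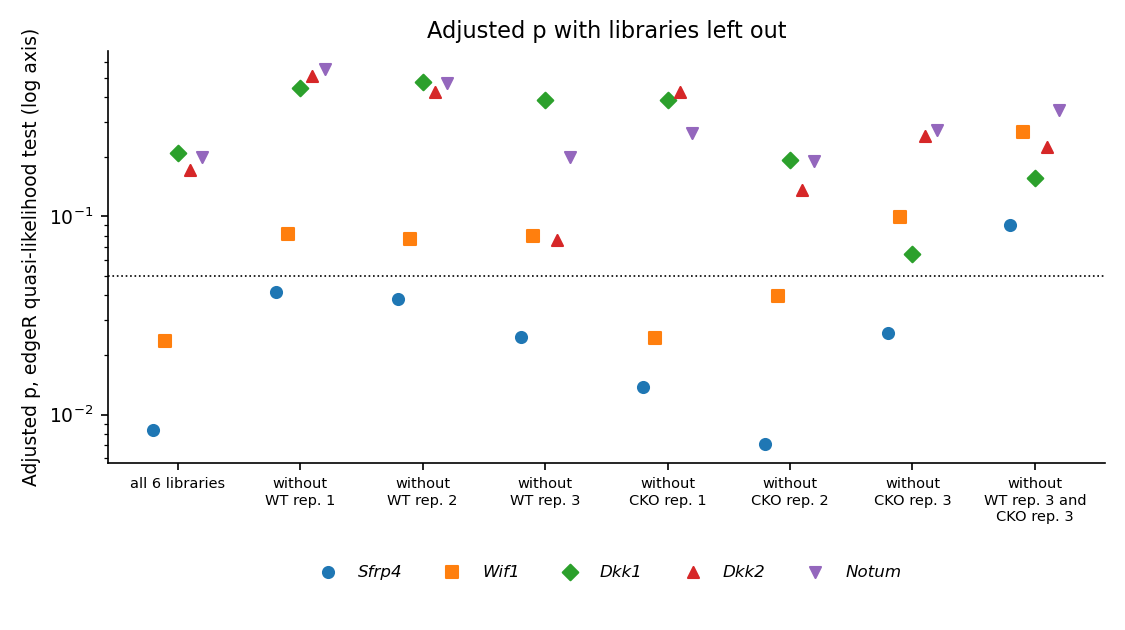
Adjusted p of edgeR's quasi-likelihood test on a log axis for the 5 antagonists with the smallest p, in the fit on all 6 libraries and with libraries left out, where the dotted line marks 0.05. Sfrp4 stays under the line with any single library left out and reaches 0.09 only with both cartilage-rich libraries left out, Wif1 crosses it in 5 of the 7 reduced fits, and Dkk1, Dkk2 and Notum stay above it in all of them.

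Levels of different genes were compared on the RPKM scale of the deposited table, where the length of a gene is taken into account. In WT the most abundant antagonists were Wif1, with a mean level of 28.8 ± 4.7 RPKM (SD, n = 3), and Dkk3, at 28.2 ± 3.6 RPKM (SD, n = 3), whose ranges overlapped. Sfrp2 followed at 19.7 RPKM, below the range of both. Dkk2, Sfrp4, Frzb and Sfrp1 came next at 8.17, 7.21, 6.55 and 5.54 RPKM, with overlapping ranges between neighbours in that order. Notum and Dkk1, at 3.73 and 3.34 RPKM, overlapped each other, and Sfrp5 stood lowest at 0.72 RPKM.

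In Hdac3 CKO the order changed. Dkk3 stood first at 30.9 RPKM and Sfrp4 second at 24.8 ± 6.8 RPKM (SD, n = 3), with overlapping ranges. Wif1 came next at 14.5 ± 1.1 RPKM (SD, n = 3), below the range of Sfrp4, and overlapped Sfrp2 at 13.0 RPKM. Sfrp4 was less abundant than Wif1 in every WT library, at 0.228, 0.265 and 0.253 of its RPKM, and more abundant in every Hdac3 CKO library, at 1.61, 2.05 and 1.41 times its RPKM.

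The summed level of the 10 antagonists was 109.4, 116.3 and 110.2 RPKM in WT and 111.2, 114.8 and 91.6 RPKM in Hdac3 CKO, so the groups overlapped while the make-up differed. Sfrp4 made up 5.06%, 6.51% and 7.72% of that sum in WT and 20.4%, 28.2% and 21.0% in Hdac3 CKO. Wif1 made up 22.2%, 24.6% and 30.5% in WT and 12.7%, 13.7% and 14.9% in Hdac3 CKO. The Sfrp family with Frzb together held 34.1% to 37.1% of the sum in WT and 44.4% to 50.2% in Hdac3 CKO, which did not overlap. Within the family only the share of Sfrp4 was higher without overlap. The shares of Sfrp1, Sfrp2, Sfrp5 and Frzb each overlapped, with Sfrp2 at 15.1% to 19.1% in WT and 9.25% to 17.0% in Hdac3 CKO. The 3 Dkk genes held 30.2% to 41.3% in WT and 32.4% to 35.5% in Hdac3 CKO, which overlapped. These shares were not tested apart from the genes themselves.

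**Figure D4:**
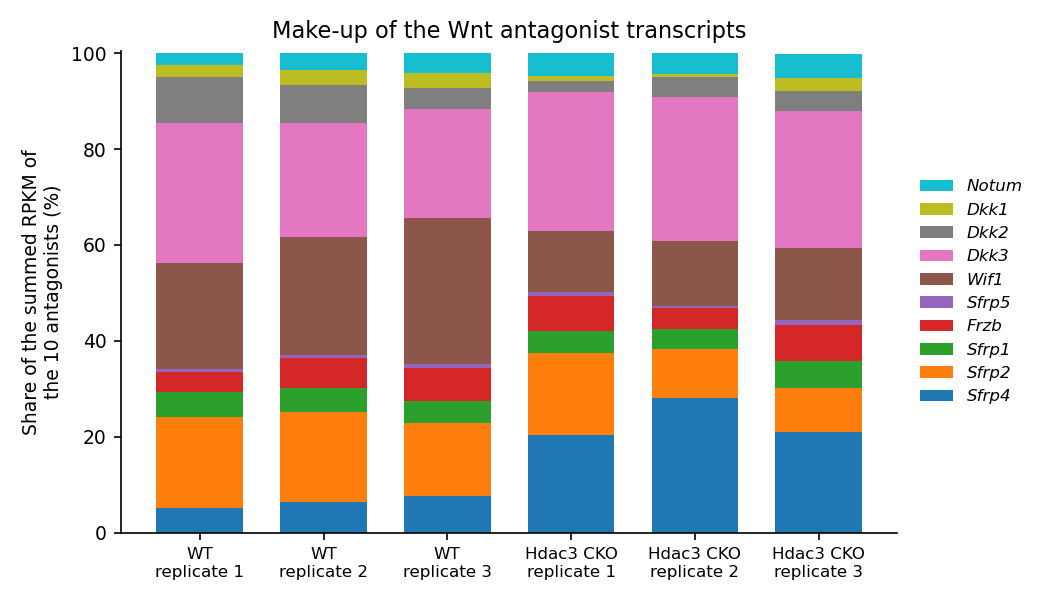
Share of each antagonist in the summed RPKM of the 10 genes, in percent, with 1 bar for each of the 3 WT and 3 Hdac3 CKO libraries. The Sfrp4 share at the foot of the bars is 5.06% to 7.72% in WT and 20.4% to 28.2% in Hdac3 CKO, and the Wif1 share is 22.2% to 30.5% in WT and 12.7% to 14.9% in Hdac3 CKO.

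Cell type markers moved with the genotypes beside Sfrp4 and Wif1. Summed over 8 osteoblast markers, the level was 45910 to 61050 CPM in WT and 70420 to 100600 CPM in Hdac3 CKO, with 0 of 8 past the test in edgeR. Col1a1 and Col1a2 made up most of that sum. Ibsp (1.21, adjusted p = 0.062, edgeR), Col1a1 (0.75), Col1a2 (0.64) and Sp7 (0.38) were higher in all Hdac3 CKO libraries than in all WT libraries. Spp1 (0.51) and Alpl (0.18) overlapped. Runx2 went the other way, at -0.44 with all Hdac3 CKO libraries below all WT libraries, and Bglap stood at -0.23 with overlap. Of 5 osteocyte markers 1 rose, Dmp1, which made up most of sums of 311 to 524 and 653 to 820 CPM. Mepe stood at -0.79, with all Hdac3 CKO libraries below all WT libraries and an adjusted p of 0.28, and Phex stood at -0.31. Of 5 articular and joint markers 2 rose, Cilp (1.82) and Cilp2 (1.04), with sums of 133 to 179 and 273 to 381 CPM. Erg stood at -0.35, with all Hdac3 CKO libraries below all WT libraries, and Prg4 and Gdf5 overlapped. Of 5 tendon markers 1 rose, Thbs4 (1.09), with sums of 992 to 1131 and 1441 to 2071 CPM. Mkx stood at -0.51 with overlap, and Fmod, Scx and Tnmd also overlapped. Of 7 macrophage markers 5 rose, with sums of 261 to 278 and 481 to 558 CPM. None of these genes was at 0 in any library.

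Sums also lay lower in Hdac3 CKO for 3 lists. Of 6 connective tissue fibroblast markers 2 fell, Dpp4 (-2.08) and Pi16 (-1.25), with sums of 426 to 529 CPM in WT and 408 to 421 CPM in Hdac3 CKO. Pdgfra (-0.21) and Cd34 (-0.19), neither past the test, made up most of these sums. Thy1 went the other way, at 0.55 with all Hdac3 CKO libraries above all WT libraries (adjusted p = 0.092, edgeR). Of 7 neutrophil markers 4 fell, with sums of 83.4 to 249 and 17.4 to 26.9 CPM, and of 6 erythroid markers 2 fell, with sums of 157 to 254 and 95.1 to 117.7 CPM. The sums of the hypertrophic chondrocyte, skeletal muscle, endothelial, adipocyte, epidermal and Schwann cell lists overlapped between the genotypes, with 0 genes of these lists past the test. Skeletal muscle sums were large in every library, at 26620 to 32470 CPM in WT. They were 49510 CPM in Hdac3 CKO replicate 1 and 31430 and 29620 CPM in replicates 2 and 3. All 10 muscle markers had log2 fold changes above 0, from 0.117 to 0.532. With the chondrocyte markers as a covariate, Sfrp4 stood at 1.88 in log2 fold change (adjusted p = 0.0098, edgeR) and Wif1 at -0.85 (0.053). With the skeletal muscle markers as a covariate they stood at 1.97 (0.015) and -0.82 (0.04). Each fit took a single marker list. What part the mix of cells has in the values of Sfrp4, Wif1 or the other antagonists was not tested otherwise.

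The antagonists did not follow cartilage RNA in a common way. In log2 CPM, the chondrocyte marker sum of WT replicate 3 lay 2.02 above the mean of the other WT libraries, and that of Hdac3 CKO replicate 3 lay 2.92 above the other Hdac3 CKO libraries. The same differences were 0.38 and 0.11 for Frzb, 0.1 and 1.25 for Dkk1, -1.02 and 0.18 for Dkk2, 0.37 and -0.46 for Sfrp4, and 0.33 and -0.088 for Wif1. Only Sfrp5 (0.27 and 0.83), Frzb and Dkk1 stood above the mean of the other libraries in both. Sfrp2 (-0.38 and -0.77) and Dkk3 (-0.28 and -0.31) stood below it in both.

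The other genes of the pathway were read from 7 lists that together held 75 tested genes, of which 2 rose and 1 fell. That is 4.0%, where 1.12% of all tested genes passed. In edgeR, 17 of the 75 and 14.7% of all tested genes had an unadjusted p under 0.05. Of 17 further inhibitors of Wnt signalling 1 rose, Apcdd1, a membrane protein that binds Wnt proteins and Lrp5. It stood at 12.7, 16.7 and 19.7 CPM in WT and at 99.4, 60.5 and 44.0 CPM in Hdac3 CKO, without overlap, and rose by 2.06 ± 0.29 (SE) on the log2 scale (adjusted p = 0.018, edgeR). Igfbp4 (0.57), Trabd2b (-0.45) and Kremen1 (0.37), the Dkk co-receptor, did not pass in edgeR, DESeq2 called Igfbp4, and the list median was 0.17. Dkk4 was in the table but below the filter.

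Of 12 tested Wnt ligands 1 fell. Wnt2 stood at 2.29, 1.9 and 1.12 CPM in WT and at 0.34, 0.38 and 0.26 CPM in Hdac3 CKO, or -2.44 ± 0.38 (SE) in log2 fold change (adjusted p = 0.022, edgeR). At such low levels the size of the fold depends on the scale. On log2 RPKM it was -0.56 with a pseudocount of 1 and -1.80 with 0.1 (adjusted p = 0.034 and 0.022, limma). Wnt10a stood at -2.09 (adjusted p = 0.085, edgeR) and was called by DESeq2, and the list median was 0.33. Of 16 receptors and co-receptors 1 rose, Ror2, the receptor tyrosine kinase that Wnt5a uses. Ror2 stood at 23.5, 20.3 and 22.9 CPM in WT and at 51.2, 49.7 and 41.2 CPM in Hdac3 CKO, or 1.09 ± 0.14 (SE) in log2 fold change (adjusted p = 0.014, edgeR). The list median was 0.06, and Ptk7 stood at 0.61 (adjusted p = 0.088, edgeR) and was called by DESeq2. Apcdd1 and Ror2 missed the threshold without WT replicate 1 (adjusted p 0.07 and 0.053) and without WT replicate 2 (0.077 and 0.071), and so did Wnt2 without WT replicate 1 (0.088), WT replicate 2 (0.08) or Hdac3 CKO replicate 3 (0.091). All 3 missed it without both cartilage-rich libraries, at adjusted p of 0.09 for Apcdd1 and 0.11 for Ror2 and Wnt2, with log2 fold changes of 2.44, 1.20 and -2.54.

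Of 14 tested beta-catenin target genes 1 rose, Apcdd1 again, and 13 did not pass in edgeR, with a median of 0.13. DESeq2 also called Twist1 and Lgr5. Twist1 stood at 0.72 (adjusted p = 0.06, edgeR), and Lgr5, which also belongs to the list of R-spondins and their receptors, at -1.27 with an adjusted p of 0.16. Of 7 R-spondin genes and receptors 0 passed in edgeR's quasi-likelihood test, and DESeq2 called only Lgr5 of them. In edgeR 2 of the 7, Lgr5 and Rspo4 (1.16), had an unadjusted p under 0.05, as did 14.7% of all tested genes. Of 15 genes of beta-catenin, its destruction complex and the TCF factors 0 passed in edgeR or DESeq2 and 0 had an unadjusted p under 0.05 in edgeR, with Pygo1 at -0.42 and Apc at -0.49. The 2 Wnt secretion genes, Porcn (0.05) and Wls (0.0047), did not pass by either tool, and neither had an unadjusted p under 0.05.

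**Figure D5:**
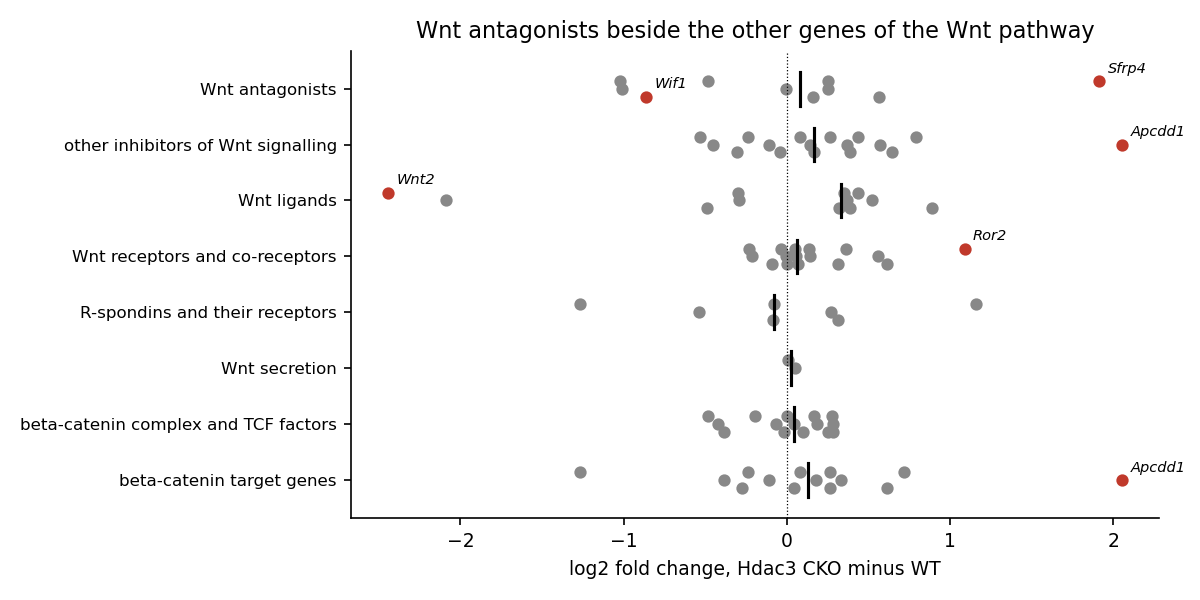
Log2 fold change, Hdac3 CKO minus WT, of the 10 Wnt antagonists and of the tested genes of 7 other lists of the Wnt pathway, with 1 point per gene, a black bar at each list median, and red named points for genes past an adjusted p of 0.05. Sfrp4 (1.92) and Wif1 (-0.86) stand beside Apcdd1 (2.06), Ror2 (1.09) and Wnt2 (-2.44), and Apcdd1 appears in 2 lists.

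Neighbouring genes on the chromosome gave a view of how far the differences reached. For each antagonist the nearest 2 tested protein-coding genes on each side were read, 40 in all, and 1 passed the test. It was Pde1a, 283 kb from Frzb, which fell by 2.15 on the log2 scale (adjusted p = 0.0081, edgeR), while Frzb itself stood at 0.16. None of the 4 genes beside Sfrp4 passed in edgeR, with log2 fold changes from -0.76 for Gpr141 (adjusted p = 0.47) to 0.00073 for Epdr1 (adjusted p = 0.999). Epdr1, 3.35 kb from Sfrp4, stood at 39.4 CPM in WT and 39.5 CPM in Hdac3 CKO.

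Genes with the most similar profile over the 6 libraries were found by the root mean square difference of log2 CPM, each gene centred on its mean and divided by its SD, among 16063 genes with a mean of at least 1 CPM. For Sfrp4 they were Txnl1 (0.096), which differed little in size between the genotypes at 0.09, and the complement gene C2 (0.1), which rose by 1.18. For Wif1 they were Gdpd2 (0.087), which fell by 2.01 on the log2 scale (adjusted p = 0.015, edgeR), and Ttc5 (0.11) at -0.2. For Dkk2 they were L3mbtl3 (0.088) at -0.28 and Angptl1 (0.098) at -0.69, neither past the test. The measure ignores the size of a difference and describes these libraries only.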

How the data were processed

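Per the file headers, the authors deposited raw gene counts of the 6 libraries and RPKM values. TruSeq v2 mRNA libraries were used, per the labels' protocols, and bcl2fastq 1.8.4, TopHat2 2.1.0, Subread and featureCounts with the mm10 build, per the submitters' processing notes. How strand and multi-mapped reads were treated, and the annotation release, is not given in the sources used here. Counts were filtered with filterByExpr, scaled by TMM and compared in edgeR 4.0.16 (R 4.3.3) by the quasi-likelihood test with robust moderation, no covariate, 4 residual degrees of freedom and Benjamini-Hochberg adjustment over 20210 genes. A gene rose or fell at an adjusted p under 0.05. Replicates were numbered in record order. Alternatives were other scalings and filters, DESeq2 1.42.0, limma 3.58.1 with voom or on log2 RPKM, marker covariates and left-out libraries. Exon overlaps and strands came from GENCODE M21, which is on the same assembly.

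On simulated counts for this comparison, with 19787 genes run, 71% of 2-fold and 99% of 4-fold changes were recovered, and 8.11% of the calls fell on unchanged genes. Changes were planted only in genes with a higher mean count than Sfrp5. Counts were drawn for each gene independently, without differences in tissue mix between libraries. These shares therefore do not cover rarer genes or such differences. The members, gene lists and rule for naming genes were chosen with earlier results of these data known. The rule named all 10 members, Hdac3, of each pathway list up to 4 genes past the test or else the 2 with the smallest p, and the 2 genes nearest in profile to the 3 members with the smallest p; flanking genes were taken by position. Other genes of these lists that are named were chosen after their values were seen. Of 7 erythroid markers, Ahsp was not matched.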

Additional observations from a re-analysis of the deposited data

How the results depend on the processing

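Sfrp4 kept its direction in all 19 alternatives and passed the test in 18, at log2 fold changes of 1.64 to 2.19. Wif1 kept its direction in 19 and passed in 13, at -1.04 to -0.72. Sfrp2, Dkk1, Dkk2, Dkk3 and Notum kept their direction in all 19. Sfrp1 turned to 0.0050 in DESeq2, 0.086 without WT replicate 1 and 0.041 without Hdac3 CKO replicate 2. Sfrp5 turned to -0.0024 without Hdac3 CKO replicate 3. Frzb turned to -0.037 with library totals, -0.0018 without Hdac3 CKO replicate 1 and -0.041 with the skeletal muscle covariate. With single libraries left out these 3 genes ranged over -0.073 to 0.086, -0.0024 to 0.60 and -0.0018 to 0.32. The cause was not tested. With library totals in place of TMM the median of all genes moved to -0.18 and the share of higher calls was 33.8% in place of 59.7%; it was 36.6% and 36.9% on log2 RPKM with a pseudocount of 1 and 0.1. Of all tested genes 1.12% passed (226), and 1.46% with no filter (450), 4.12% in DESeq2 (828), 0.648% on log2 RPKM with a pseudocount of 1 (131), 0.604% with the chondrocyte covariate (63 higher and 59 lower) and 0.742% with the muscle covariate (150). Antagonists past the test numbered 2, but 4 in DESeq2 and 1 with the chondrocyte covariate, and pathway genes 3, but 8 in DESeq2. With single libraries left out these ranged over 0.127% to 0.973% of genes (26 to 202), 1 to 2 antagonists and 0 to 3 pathway genes. Without both cartilage-rich libraries they were 0, 0 and 0 in edgeR, with 2240, 5 and 12 at an unadjusted p under 0.05; DESeq2 was not run there. Pathway genes numbered 0 in edgeR without WT replicate 1 or 2, with 13 and 12 at an unadjusted p under 0.05. No paired analysis was possible because the labels give no replicate numbers shared between the genotypes.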
